A study of Mus musculus with 4 samples.

Results

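Afadin, the product of Afdn, is a scaffold that ties the nectins at cell junctions to actin filaments. The genes described here are Afdn, the nectin genes Nectin1, Nectin2 and Nectin3, the connexin gene Gjb2, the tight junction scaffold gene Tjp1, the catenin genes Ctnnb1 and Ctnna1, and the small GTPase gene Rap1a. They are 9 of the 18193 genes that the array annotation names through a probe set of 1 gene. Every probe set naming exactly 1 of them was taken, 24 in all. The group was chosen by the array values themselves, the log2 changes between 4OHT and ethanol on these 4 arrays, so the members' changes are given as a description and carry no test.

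RNA was measured on 4 Affymetrix arrays of T29, a mouse thymic lymphoma line that the design text calls Ikaros-deficient. Both groups carried MigR1-MLER, a transduced inducible form of dominant-negative Mastermind. Cells of 1 group (2 samples) received ethanol, the vehicle, and those of the other (2 samples) received 100 nM 4OHT, the tamoxifen metabolite that acts on oestrogen receptor fusions, both for 24 h. Cells lacking the construct were not analysed here, so effects of 4OHT itself and of the induced protein cannot be told apart. All samples came from a single line, and the labels do not say whether replicates were separate cultures; p-values therefore reflect the scatter of these samples alone, and that scatter may be technical.

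Nectins are immunoglobulin-like adhesion molecules that bind each other across neighbouring cells, and afadin holds their tails through its PDZ domain. Afadin also binds active RAP1 and works beside the cadherin system, in which beta-catenin (Ctnnb1) and alpha-catenin (Ctnna1) couple cadherins to actin. ZO-1 (Tjp1) scaffolds tight junctions, and the connexin encoded by Gjb2 forms gap junction channels. Lymphocytes build no epithelial junctions, but they use RAP1 to control integrins, and beta-catenin also acts in transcription with TCF factors. Notch activates its targets through RBPJ and Mastermind, and dominant-negative Mastermind blocks that step.

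Afdn and Gjb2 were the members with the large differences, and the stretches upstream of their annotated starts are shown because Notch acts at its targets' DNA through RBPJ. That of Nectin3 is shown as the single member window holding the core RBPJ motif. Each sequence is the 250 bases before the RefSeq start, build GRCm38.p6, written 5′ to 3′ on the gene's strand. The Afdn stretch is chr17:13760291-13760540 on the plus strand, that of Gjb2 is chr14:57104703-57104952 on the minus strand, and that of Nectin3 is chr16:46496968-46497217 on the minus strand. Capitals mark GGGCGG or its complement CCGCCC, the GC box, in Afdn and Gjb2, and TGGGAA or its complement TTCCCA in Nectin3.
Afdn: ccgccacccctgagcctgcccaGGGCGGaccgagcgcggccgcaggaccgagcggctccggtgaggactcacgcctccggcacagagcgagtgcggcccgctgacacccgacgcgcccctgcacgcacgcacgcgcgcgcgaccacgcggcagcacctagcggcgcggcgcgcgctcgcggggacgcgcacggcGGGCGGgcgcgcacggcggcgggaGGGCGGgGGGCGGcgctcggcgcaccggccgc
Gjb2: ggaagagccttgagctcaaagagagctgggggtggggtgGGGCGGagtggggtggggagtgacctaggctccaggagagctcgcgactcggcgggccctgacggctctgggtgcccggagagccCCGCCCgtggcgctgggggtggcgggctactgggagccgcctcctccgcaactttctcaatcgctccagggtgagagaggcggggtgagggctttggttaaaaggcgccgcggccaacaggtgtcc
Nectin3: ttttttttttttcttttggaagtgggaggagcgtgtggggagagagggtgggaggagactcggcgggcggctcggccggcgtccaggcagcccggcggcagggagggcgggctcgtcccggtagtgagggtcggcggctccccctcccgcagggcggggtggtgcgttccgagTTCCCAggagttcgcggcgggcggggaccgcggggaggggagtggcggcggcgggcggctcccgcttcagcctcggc

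The table of RefSeq promoters held 7 windows of 300 bases, 250 before and 50 after the start, for 6 members (Afdn, Gjb2, Nectin2, Nectin3, Tjp1 and Ctnnb1). The core RBPJ motif TGGGAA, searched on both strands, occurred in 1 of these 7 windows and in 25.6% of all 32851 windows. The longer form CGTGGGAA, which contains the core, was in none of the 7 and in 0.734% of all windows. The windows of Afdn and Gjb2 therefore held neither string, which says only that these letters are not in this short stretch. The GC box, a motif searched after the values were seen, was in all 7 windows and in 35.7% of all windows. The 7 are not separate, since both Ctnnb1 windows share 122 bases. The Afdn window was 83.3% G and C and that of Gjb2 70%, against a median of 52.7% over all windows.

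The line carried T-lineage transcripts. Of 10 measured T-lineage marker genes, 8 had a mean above the testing floor, a log2 value of 4.81 (the 40th percentile over named probe sets), while Cd2 and Cd5 lay below it. As a check of the treatment, the Notch target genes Dtx1 (a ubiquitin ligase, log2 change -3.41), Ptcra (the pre-T-cell receptor alpha chain, -2.23) and Hes1 (a repressor, -1.39) were lower with 4OHT (limma adjusted p = 0.000506, 0.00221 and 0.00945). Signs of RNA quality came from control probe sets at the 3′ and 5′ ends of a transcript. For 18S ribosomal RNA the 3′ end exceeded the 5′ end by 0.05 and 0.32 (log2) with ethanol and by 0.90 and 0.82 with 4OHT, and for Actb by 0.40 to 0.49 on all arrays. The 18S 5′ control of ethanol replicate 1 was bright, at 8.02 against 6.35 to 6.78 elsewhere; values without that array stand beside the member counts. The part of these differences in the results was not tested.

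**Figure D1:**
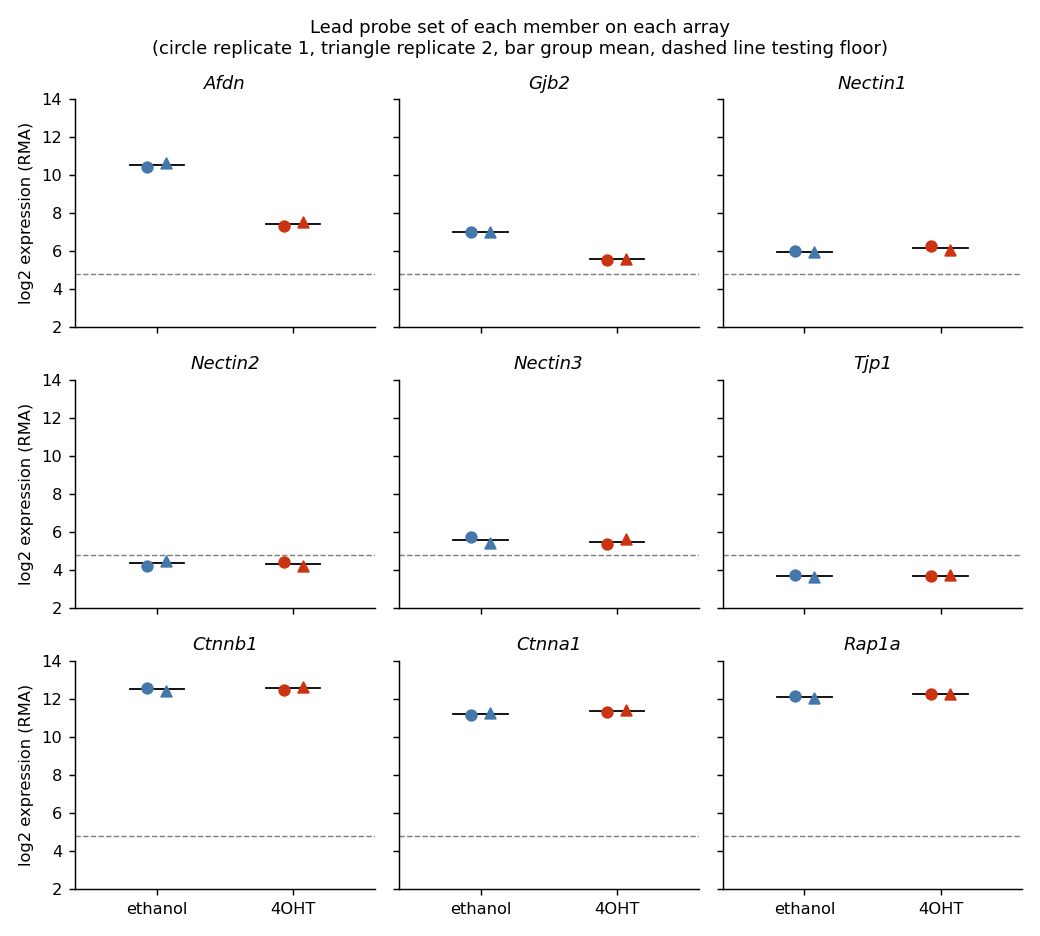
Log2 expression (vertical axis, RMA values) of the lead probe set of each of the 9 genes on each array, by treatment (horizontal axis). Circles are replicate 1, triangles replicate 2, bars the group means and the dashed line the testing floor of 4.81. Afdn and Gjb2 separate by treatment; Nectin2 and Tjp1 lie below the floor in both groups.

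Afdn was the member with the largest difference. Its lead probe set, 1436303_at, the one with the highest mean over the 4 arrays, read 10.44 and 10.65 with ethanol and 7.33 and 7.53 with 4OHT (log2 expression). Both 4OHT arrays lay far below both ethanol arrays, and the smallest gap between an array of one group and an array of the other was 2.91. The group means were 10.55 ± 0.15 and 7.43 ± 0.14 (SD, n = 2 each), an 8.68-fold lower level with 4OHT (log2 change -3.12 ± 0.12 SE). Each SE is that of limma, which draws a gene's variance towards that of all genes, so it does not follow from the 2 SDs alone. In the text, lead probe sets take it from the fit over genes and other probe sets from the fit over probe sets. The replicates of a group differed by 0.22 with ethanol and 0.20 with 4OHT. Afdn remained above the floor on every array. Among the 11581 genes tested, its fall ranked 4 by size. In bulk RNA, fewer cells expressing a gene and less RNA per cell cannot be told apart.

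The other Afdn probe set, 1431799_at, was dim. It read 5.23 and 5.02 with ethanol and 4.61 and 4.63 with 4OHT, so its ethanol values lay just above the floor and its 4OHT values below it. The groups did not overlap, and the difference was 1.42-fold (log2 change -0.51 ± 0.11 SE, from a fit over all 34945 probe sets naming 1 gene). Both Afdn probe sets were thus lower with 4OHT, by amounts that differed widely. A change read near the floor can be understated, and which Afdn transcripts each probe set reads was not analysed here.

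Gjb2, the connexin gene, had 1 probe set, which read 7.03 and 7.01 with ethanol and 5.55 and 5.60 with 4OHT. The replicates of each group nearly coincided and the groups stood 1.41 apart at their closest. The means were 7.02 ± 0.01 and 5.57 ± 0.04 (SD, n = 2 each), a 2.72-fold lower level (log2 change -1.44 ± 0.08 SE). Its fall ranked 21 among the genes tested.

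Epithelial RNA was looked for beside these falls, since nectins, afadin and the Gjb2 connexin are prominent in epithelia. Of 9 epithelial marker genes, 7 had a mean below the floor (Krt7, Krt8, Krt14, Krt18, Krt19, Cdh1 and Cldn4). The summed level of the 9, on the linear scale, was 188 and 193 with ethanol and 172 on both 4OHT arrays. The 7 genes below the floor are part of this sum, which may therefore hold background signal. Epcam, the epithelial adhesion molecule gene, read 5.79 and 5.68 with ethanol and 5.50 and 5.51 with 4OHT (limma adjusted p = 0.178). Krt5, the other marker above the floor, read 4.89 and 4.99 against 4.90 and 4.84, with overlapping groups (limma adjusted p = 0.673). The part of these low levels in the falls of Afdn and Gjb2 was not tested.

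Gjb2 sits on mouse chromosome 14 between the connexin genes Gja3 and Gjb6, and Afdn lies on chromosome 17. Neighbouring genes, 4 protein-coding genes on each side in the order of the RefSeq gene table, were looked at after the members' values were seen. Gja3 read 4.00 and 4.05 with ethanol and 4.35 and 3.89 with 4OHT, and Gjb6 read 3.50 and 3.63 against 3.50 and 3.58. Both connexin neighbours were below the floor in both groups. Of the 8 neighbours of Gjb2, 6 had a probe set, and their log2 changes ran from -0.20 to 0.23. Only 2 of the 8 neighbours of Afdn had one, with changes of -0.41 and -0.27, and both read below the floor on every array.

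The nectin genes, whose products afadin binds, were at low levels or near the floor and showed small differences. Nectin1 read 6.00 and 5.97 with ethanol and 6.29 and 6.09 with 4OHT on its lead probe set. The groups did not overlap but came within 0.09 of each other, and the log2 change was 0.21 ± 0.10 SE, or 1.15-fold. Its other probe sets, both below the floor, pointed in opposite directions, at -0.17 and 0.33. No common direction therefore came out of the 3 Nectin1 probe sets.

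Nectin2 was below the testing floor. Its lead probe set read 4.21 and 4.50 with ethanol and 4.41 and 4.23 with 4OHT, and the groups overlapped. The log2 change was -0.03, and that of its other probe set was -0.05. Neither difference exceeded the spread between replicates.

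Nectin3 had 6 probe sets, of which 3 had a mean above the floor. The lead read 5.75 and 5.42 with ethanol and 5.35 and 5.63 with 4OHT, with overlapping groups and a log2 change of -0.09 ± 0.15 SE. The probe set 1448673_at read 5.57 and 5.78 against 5.12 and 5.55 (log2 change -0.34 ± 0.16 SE), and 1421133_at read 4.99 and 5.21 against 4.95 and 4.90 (-0.18 ± 0.12 SE). All 3 probe sets above the floor thus had values below 0, and the groups overlapped for the lead. The 3 dimmer ones had values above 0, from 0.05 to 0.17.

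**Figure D2:**
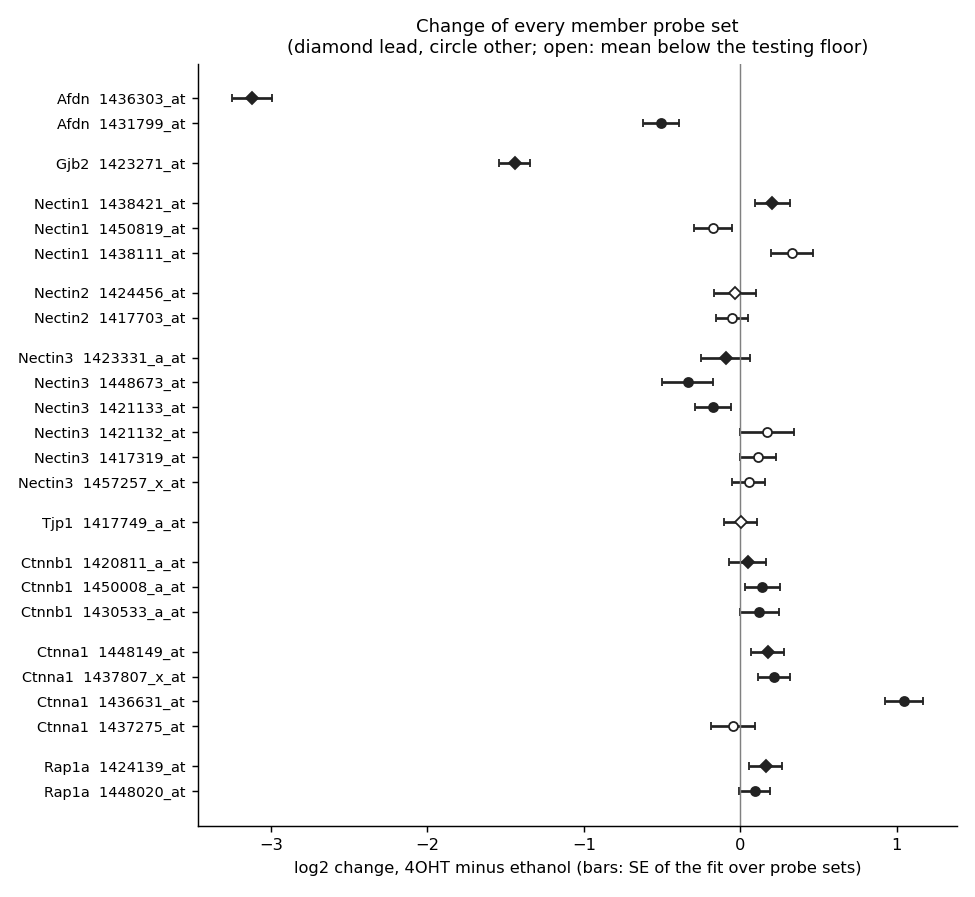
Log2 change, 4OHT minus ethanol (horizontal axis), of all 24 probe sets of the 9 genes (vertical axis), with the SE of the fit over all probe sets naming 1 gene. Diamonds are lead probe sets, circles the others, and open symbols have a mean below the floor. The Afdn lead (-3.12), Gjb2 (-1.44), 1 Ctnna1 probe set (1.05) and the second Afdn probe set (-0.51) lie farthest from 0.

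The catenin genes were at high levels on their lead probe sets in both groups. Ctnnb1, which encodes beta-catenin, read 12.60 and 12.43 with ethanol and 12.48 and 12.64 with 4OHT. The groups overlapped, with a log2 change of 0.05 ± 0.11 SE. Its other probe sets had changes of 0.14 and 0.12. All 3 values lay above 0, and the spread between replicates was of the same size.

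Ctnna1, which encodes alpha-catenin, read 11.18 and 11.24 with ethanol and 11.35 and 11.42 with 4OHT on its lead probe set. The groups did not overlap, and the log2 change was 0.17 ± 0.09 SE, or 1.13-fold. The probe set 1437807_x_at gave a similar change of 0.21. Another, 1436631_at, read 5.12 and 5.37 with ethanol and 6.28 and 6.30 with 4OHT, a 2.06-fold higher level (log2 change 1.05 ± 0.12 SE). It was picked out after its value was seen. Its change was thus far larger than that of the lead. The remaining Ctnna1 probe set was below the floor, at -0.05.

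Rap1a, which encodes a small GTPase that binds afadin in its active form, read 12.16 and 12.04 with ethanol and 12.28 and 12.25 with 4OHT. The log2 change was 0.16 ± 0.09 SE, and that of its other probe set was 0.09. Neither probe set had overlapping groups. The ethanol replicates differed by 0.12 on the lead and by 0.03 on the other probe set. Tjp1, which encodes ZO-1, read 3.76 and 3.66 with ethanol and 3.68 and 3.75 with 4OHT on its single probe set. It was below the floor on every array and its groups overlapped.

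Of the 9 members, 7 had a lead probe set above the floor and entered the fit of 11581 genes (limma with Benjamini-Hochberg adjustment over all of them). The fit called 2 of the 7, Afdn and Gjb2, both lower, where 7.47% of all genes tested were called, 3.9% higher and 3.57% lower. The groups did not overlap for 5 of the 7, against 56.9% of all genes tested (26.7% higher with 4OHT and 30.2% lower). Because the members were picked with this comparison known, nothing is read from these counts. Without ethanol replicate 1 the log2 change of Afdn was -3.23 and that of Gjb2 -1.43. Without 4OHT replicate 1 these changes were -3.02 and -1.42. Each such fit leaves 1 array in a group and uses the values that picked the members, so no call of a member is read from it.

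**Figure D3:**
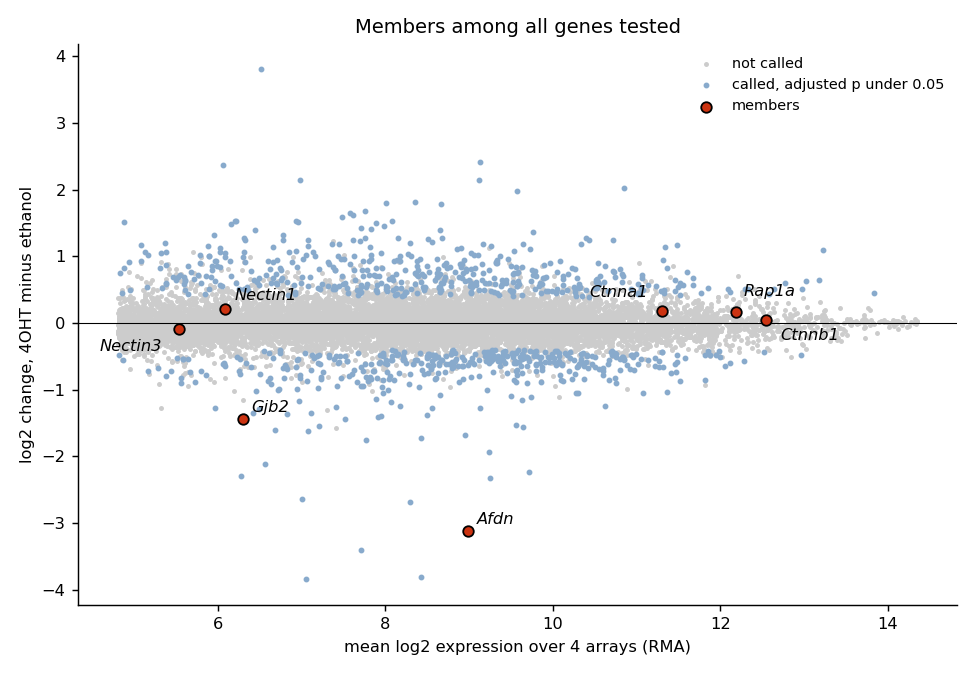
Log2 change, 4OHT minus ethanol (vertical axis), against the mean log2 expression over 4 arrays (horizontal axis) for the 11581 genes tested. Blue points were called at a limma adjusted p under 0.05, grey points were not, and red points are the 7 members tested. Afdn (-3.12) and Gjb2 (-1.44) lie below the main cloud and the other 5 lie within it.

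The genes whose values over the 4 arrays ran most like those of Afdn were Dtx1, Ifi202b, Exoc3l4, Scn4b and Spsb4. Likeness was the Euclidean distance between log2 values after each gene was centred on its own mean, leaving out clone names and predicted genes. Dtx1 was nearest, at a distance of 0.35, and read 9.41 and 9.43 with ethanol and 6.01 and 6.01 with 4OHT. The other four lay at distances from 0.72 to 0.90. Afdn (-3.12) and Dtx1 (-3.41) held ranks 4 and 3 among falls. With 2 groups of 2 arrays, such a ranking mostly sorts genes by the size of their fall.

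Gjb2 ran closest to Scn2b, a sodium channel beta subunit gene, at a distance of 0.08. Scn2b read 9.22 and 9.15 with ethanol and 7.80 and 7.82 with 4OHT. Myl4, a myosin light chain gene, Ydjc, Il15ra, which encodes the interleukin-15 receptor alpha chain, and Aldh1b1, an aldehyde dehydrogenase gene, followed at distances from 0.11 to 0.19. Their log2 changes lay between -1.55 and -1.35, around the -1.44 of Gjb2.

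**Figure D4:**
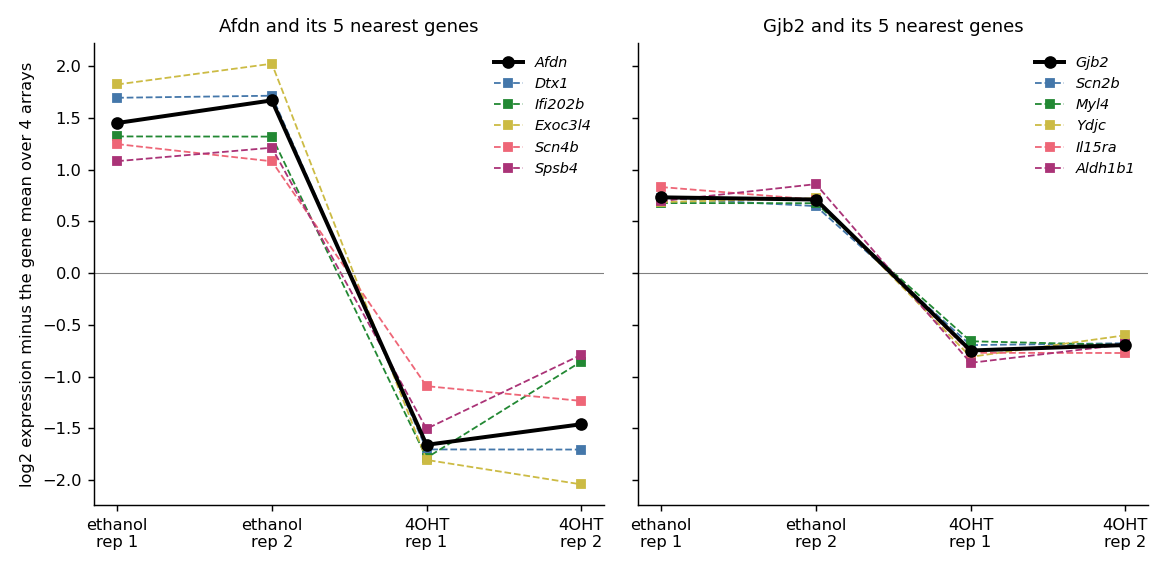
Log2 expression minus each gene's mean over 4 arrays (vertical axis) on each array (horizontal axis), for Afdn (left) and Gjb2 (right) in black and for the 5 genes nearest to each in colour. Dtx1 follows Afdn at a distance of 0.35, and Scn2b follows Gjb2 at 0.08.

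Other genes of the same pathways were described from 7 lists, of 156 genes in all, of which 138 had a probe set naming 1 gene and 89 were tested. With 4OHT, 7 of the 89 rose and 2 fell, which is 10.1% called, close to the 7.47% of all genes tested. The rises were in Cadm1, Ctnnbip1, Rapgef3, Skap1, Rasgrp1, Fyb and Lasp1, and the falls in Pkp4 and Ybx3. The median log2 change of the 89 was 0.05, against -0.01 over all genes tested. None of these 9 had a change as large as those of Afdn and Gjb2. Since the members were chosen with their changes known, nothing is read from this comparison.

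The nectin-like list holds the cell adhesion molecules related to nectins and the lymphocyte receptors that bind them. Of its 5 tested genes, 1 rose and none fell (20% called, against 7.47% of all genes tested). Cadm1, a nectin-like adhesion molecule gene, read 7.48 and 7.46 with ethanol and 8.09 and 8.51 with 4OHT. It was 1.77-fold higher (log2 change 0.83 ± 0.15 SE, limma adjusted p = 0.0366). All 4 Cadm1 probe sets were higher with 4OHT, by 0.33 to 0.98. Cd96, a receptor of T and NK cells that binds the poliovirus receptor, had a change of 0.56 ± 0.24 SE (limma adjusted p = 0.218), Cadm4 one of -0.32 and Cadm3 one of -0.10. Nectin4, Cd226 and Crtam were below the floor. The list median was 0.08.

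Among 15 tested cadherin, catenin and actin linker genes, 1 rose and 1 fell (13.3% called, against 7.47% of all genes tested). Pkp4, plakophilin 4, an armadillo protein of the p120 catenin family, read 9.18 and 9.20 with ethanol and 8.49 and 8.60 with 4OHT (log2 change -0.64 ± 0.09 SE, limma adjusted p = 0.0229). Its second probe set gave -0.72. Ctnnbip1, which encodes an inhibitor that keeps beta-catenin from TCF factors and is no part of a junction, read 7.00 and 7.22 against 7.61 and 7.70 (0.54 ± 0.11 SE, limma adjusted p = 0.0474). Plekha7, a protein that joins afadin and p120 catenin at junctions, had a change of -0.37 ± 0.14 SE and Arvcf, another p120 family member, one of 0.30 ± 0.09 SE; neither passed (limma adjusted p = 0.165 and 0.102). Among cadherin genes, Cdh1, Cdh2, Cdh5 and Cdh11 were below the floor, while Cdh3 and Cdh4 were tested at mean levels of 5.27 and 5.55, with overlapping groups and changes of 0.02 and 0.11 that did not pass. The list median was 0.02.

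Of 16 tested tight junction and polarity genes, 1 fell, none rose and 12 had a change below 0. That is 6.25% called, against 7.47% of all genes tested, whose median change was -0.01. The gene that fell was Ybx3, a Y-box protein gene whose product binds ZO-1 and also acts on DNA and RNA in the nucleus and cytoplasm. It read 12.45 and 12.31 with ethanol and 11.76 and 11.70 with 4OHT (log2 change -0.65 ± 0.09 SE, limma adjusted p = 0.0251), and its second probe set gave -1.02. Next by size were Cldn12, a claudin gene, at -0.54 ± 0.13 SE (limma adjusted p = 0.074), Tjp3, which encodes ZO-3, at -0.37 ± 0.10 SE (0.0912), and Cgnl1, a cingulin-like gene, at -0.28 ± 0.09 SE (0.122). None of these 3 passed, and the Cgnl1 probe sets disagreed in sign. The list median was -0.12, and 18 measured genes of the list were below the floor, Ocln (occludin) and F11r (JAM-A) among them.

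Gap junction genes were mostly dim. Of 16 measured connexin and pannexin genes apart from Gjb2, 14 were below the floor. Gja1, a widely expressed connexin gene, read 9.63 and 9.44 with ethanol and 9.43 and 9.48 with 4OHT, a log2 change of -0.08 ± 0.10 SE with overlapping groups. Panx1, which forms membrane channels for ATP, had a change of 0.03 ± 0.09 SE. Neither passed in limma, at an unadjusted p under 0.05 (0 of 2) or under any alternative fit.

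The RAP list, of GTPases with their exchange factors, inactivating proteins and effectors, was the largest of the 7 in tested genes. Of these 26, 4 rose and none fell, which is 15.4% called against 7.47% of all genes tested (3.9% higher). The median was 0.11, against -0.01 over all genes tested, with 19 of the values above 0. Rapgef3, also called EPAC1, a cAMP-driven exchange factor for RAP1, read 10.73 and 10.67 with ethanol and 11.55 and 11.29 with 4OHT. It was 1.64-fold higher (log2 change 0.72 ± 0.11 SE, limma adjusted p = 0.0298), and all 5 of its probe sets were higher with 4OHT.

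Skap1 and Fyb encode adaptor proteins that work together to bring RAP1 effectors to integrins after T-cell receptor signals. Skap1 read 9.64 and 9.51 with ethanol and 10.26 and 10.05 with 4OHT (0.58 ± 0.11 SE, limma adjusted p = 0.0395). Fyb read 11.55 and 11.53 against 11.99 and 12.00 (0.45 ± 0.08 SE, limma adjusted p = 0.0366). Rasgrp1, a lymphocyte exchange factor that acts mainly on RAS, read 8.10 and 8.24 against 8.70 and 8.74 (0.55 ± 0.09 SE, limma adjusted p = 0.0327). In each of these 3 genes both 4OHT arrays lay above both ethanol arrays, as in 26.7% of all genes tested. Nothing is read from this, since the 3 were named for being called on the same arrays. Rasgrp2, an exchange factor for RAP1 named here after its value was seen, was at -0.52 ± 0.12 SE and did not pass (limma adjusted p = 0.064). It was called lower in 4 of the alternative fits.

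The list of candidate afadin partners was assembled from memory and the binding of each was not checked. Of its 12 tested genes, 1 rose and none fell (8.33% called, against 7.47% of all genes tested). Lasp1, an actin-binding LIM and SH3 protein gene, read 10.46 and 10.23 with ethanol and 11.15 and 11.06 with 4OHT (log2 change 0.76 ± 0.11 SE, limma adjusted p = 0.0251). Of its 9 probe sets, 7 were higher with 4OHT and 2 were slightly lower. Both lower ones, and 5 of the 7 higher ones with the lead among them, are of the _x_at kind, marked for possible cross-hybridisation. Tiam1, a RAC exchange factor gene, was at 0.34 ± 0.09 SE, Bcr at -0.29 ± 0.14 SE and Ssx2ip, which encodes the afadin-binding protein ADIP, at -0.25 ± 0.13 SE. None of these 3 passed (limma adjusted p = 0.0934, 0.253 and 0.283).

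Genes of beta-catenin turnover had small differences on their lead probe sets. None of 13 tested passed in limma, at an unadjusted p under 0.05 (0 of 13) or in any alternative fit, and the list median was 0.05. Gsk3b, a kinase that marks beta-catenin for destruction, had a change of 0.24 ± 0.15 SE with overlapping groups. The ubiquitin ligase adaptor genes Btrc and Fbxw11 were at 0.12 and 0.11, and Gsk3a at -0.09. The other probe sets of Btrc ran from -0.26 to 0.25 and those of Fbxw11 from 0.14 to 0.45, with some below the floor in each gene.

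**Figure D5:**
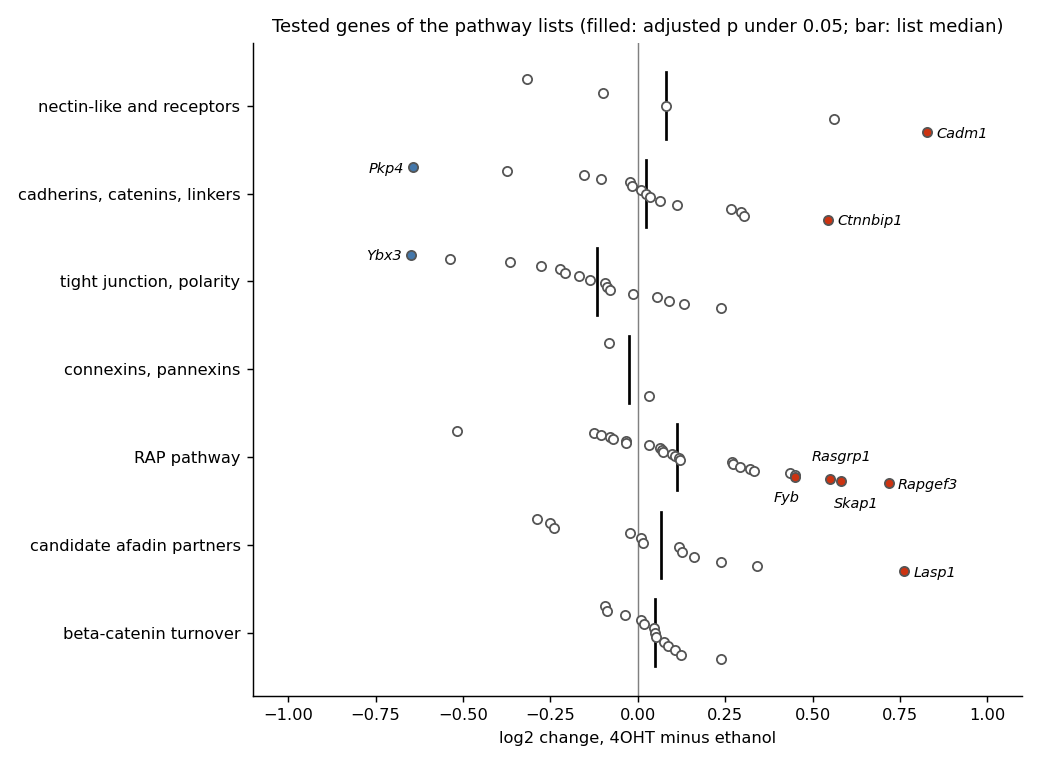
Log2 change, 4OHT minus ethanol (horizontal axis), of the tested genes of 7 pathway lists (vertical axis), sorted within each list. Filled points have a limma adjusted p under 0.05 (red higher, blue lower) and bars are list medians. The filled points are 7 rises and 2 falls, none beyond 0.83 in size.

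None of the 9 called genes passed when ethanol replicate 1, ethanol replicate 2, 4OHT replicate 1 or 4OHT replicate 2 was left out (limma adjusted p from 0.0514 to 0.173). Each of these fits leaves 1 array in a group. All 9 kept the same direction in every alternative, which was nearly fixed in advance. Their groups do not overlap, so leaving out an array cannot reverse a sign. Other filters, the replicate block and the variance priors do not alter the change. With all 4 arrays kept, 5 of the 9 were called in each of the 9 alternatives. The others missed the threshold in at least 1, namely Ctnnbip1 in 5, Cadm1 and Rapgef3 with the mean of probe sets (limma adjusted p = 0.0541 and 0.0839) and Fyb with no filter (0.052). Of their 24 further probe sets, 22 pointed the same way as the lead, the exceptions being the 2 of Lasp1.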

How the data were processed

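The deposited values are on the log2 scale, and the authors made them with RMA, according to the submitters' processing notes; it corrects background, equalises the arrays and summarises probes. The RMA version is not given in the labels. RMA gives no detection call. With 2 arrays per group, their number limits the precision. The table held 45101 probe sets. The brightest probe set on average over 4 arrays stood for each gene. Of 18193 genes, 11581 had a mean above the 40th percentile over named probe sets (log2 value 4.81) and were tested with limma 3.58.1 in R 4.3.3 (lmFit, eBayes, no block), with Benjamini-Hochberg adjustment, calling genes at an adjusted p below 0.05. The fit was also run on simulated data with independent noise on each array, which does not show that the calls hold in these samples. Called genes and then the largest changes, up to 4 a list, were named. The members and gene lists were chosen with earlier results of these data known. All 9 symbols matched the RefSeq table of GRCm38.p6 by gene number. No protein sequence was used here. The alternatives were other filters, normalizations, probe set rules and variance priors, a replicate block, and each array left out.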

Additional observations from a re-analysis of the deposited data

How the results depend on the processing

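Other filters, the replicate block and the variance priors leave the value of a member as it is. Leaving out 1 array cannot move it beyond the spread between replicates (their pooled SD). Under the other normalizations and probe set rules, the value of each member shifted by less than that spread except in these cases. With probe sets averaged per gene Afdn was at -1.81 and Ctnna1 at 0.35, and with quantile normalization Gjb2 was at -1.50. With 1 array left out, the ranges were -3.23 to -3.01 for Afdn, -1.47 to -1.42 for Gjb2, 0.11 to 0.30 for Nectin1, -0.18 to 0.11 for Nectin2, -0.26 to 0.07 for Nectin3, -0.05 to 0.05 for Tjp1, -0.03 to 0.13 for Ctnnb1, 0.14 to 0.21 for Ctnna1 and 0.10 to 0.22 for Rap1a. The ranges of Nectin2, Nectin3, Tjp1 and Ctnnb1, the members with overlapping groups, crossed 0. With so few arrays, leaving 1 out can change a sign only where groups overlap, so this is no separate check. The Nectin1 range lay above 0 on its lead, although its probe sets disagreed in sign. Counts of genes called over the whole table fell to between 9 and 125 higher and between 12 and 66 lower with 1 array left out. An intensity trend gave 663 higher and 636 lower genes, and with a robust prior 679 higher and 666 lower, against 452 and 413. In the lists, every count of higher or lower genes was 0 with any 1 array left out. The higher gene of the cadherin list (Ctnnbip1) was lost, leaving 0, with no filter, quantile normalization, median centring, the mean of probe sets, and without _x_at and _s_at probe sets. The higher nectin-like gene was lost, leaving 0, with the mean of probe sets. The RAP list lost Fyb with no filter and Rapgef3 with the mean of probe sets, gained other higher genes (Fermt3, Krit1 or Sipa1l2) in some fits, and had 3 to 6 higher genes with all 4 arrays kept. It gained 1 lower gene (Rasgrp2) with the 60th percentile filter, with either trend and with the replicate block.

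The replicate number was tried as a block, although nothing in the labels says that a number marks a shared culture. Deviations of same-numbered arrays correlated at 0.34, and 2 pairs do not settle a pairing. With the replicate block 1104 genes were higher and 1031 lower, including all 865 called without it. The block gave 2 higher nectin-like genes, 2 lower cadherin and catenin genes, 3 lower tight junction genes, 6 higher RAP genes and 1 lower, and 2 higher candidate afadin partners.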
